A study of Mus musculus with 6 samples.

Results

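The collagen and laminin chains of the fetal mouse testis were examined in RNA-seq counts of whole testes of E12.5 mouse embryos, the stage at which testis cords have formed. Members were the genes whose symbol is Col, a number, a and a number (a collagen chain) or Lama, Lamb or Lamc and a digit (a laminin chain). They numbered 55 of the 24470 genes of the table, 44 collagen and 11 laminin chains. By textbook class, 19 were basement membrane chains (Col4a1 to Col4a6, Col15a1, Col18a1 and the laminins), 11 were fibrillar collagens (types I, II, III, V, XI, XXIV and XXVII) and 25 were other collagens. Ppp1r3c, whose product promotes glycogen synthesis, was deleted in Cre-expressing cells of the cKO (conditional knockout) testes, and the comparison addresses how gene expression in the testis differed when its glycogen synthesis was impaired.

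The 3 control samples came from embryos with floxed Ppp1r3c alleles (Ppp1r3c f/f) and no Cre. The 3 cKO samples carried the same floxed alleles with Sf1-Cre, a transgene that uses Nr5a1 (Sf1) sequences to express Cre in progenitors of Sertoli cells and other somatic cells of the gonad. Both lines were kept on a C57BL/6 background. Each sample pooled 2 gonad pairs, so no sample represents 1 embryo.

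Collagens are built from 3 alpha chains wound into a triple helix, and laminins from 1 alpha, 1 beta and 1 gamma chain. Type IV collagen and laminin form separate sheets that are joined into the basement membrane, whereas types I, II, III, V and XI form the cross-striated fibrils of connective tissue. In the fetal testis, Sertoli cells and the peritubular cells around them lay down the basement membrane that encloses each testis cord, while fibrillar collagens are products mainly of interstitial and other mesenchymal cells.

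The type IV chains are encoded in pairs that share a start region and are read in opposite directions. Sequence at or before the starts is shown for each pair. Coordinates are those of GRCm38 (mm10), sequences are from RefSeq (GRCm38.p6), and capitals mark the motifs GGGCGG and CCAAT, the GC box and CCAAT box of many promoters, on either strand. The deposited coordinates of Col4a1 (chromosome 8, minus strand) and Col4a2 (plus strand) overlapped by 22 bases, chr8:11312805-11312826, printed on the plus strand. Those of Col4a4 (chromosome 1, minus strand) and Col4a3 (plus strand) were separated by 71 bases, chr1:82586850-82586920, printed on the minus strand. Col4a6 (chromosome X, minus strand) and Col4a5 (plus strand) started 1342 bases apart, and the 250 bases before each start are given on the strand of the gene, chrX:141474077-141474326 for Col4a6 and chrX:141475169-141475418 for Col4a5.
Col4a1/Col4a2 overlap: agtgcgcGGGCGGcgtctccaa
Col4a3/Col4a4 gap: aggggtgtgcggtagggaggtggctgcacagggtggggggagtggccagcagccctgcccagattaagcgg
Col4a6 upstream: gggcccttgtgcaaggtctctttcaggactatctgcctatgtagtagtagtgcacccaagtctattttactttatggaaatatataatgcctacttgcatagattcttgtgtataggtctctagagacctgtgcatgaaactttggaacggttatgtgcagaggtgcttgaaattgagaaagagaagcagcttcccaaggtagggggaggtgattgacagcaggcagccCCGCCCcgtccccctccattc
Col4a5 upstream: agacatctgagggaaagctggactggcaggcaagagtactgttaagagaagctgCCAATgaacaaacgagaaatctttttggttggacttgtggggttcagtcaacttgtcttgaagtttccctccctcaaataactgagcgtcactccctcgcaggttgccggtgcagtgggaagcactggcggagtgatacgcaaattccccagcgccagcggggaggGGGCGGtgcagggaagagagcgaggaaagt

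The GC box GGGCGG was present in the Col4a1/Col4a2 overlap and in both windows of the Col4a5 and Col4a6 pair, and CCAAT was present in that of Col4a5 alone among these 4 stretches. The 71 bases between Col4a3 and Col4a4 held neither motif, and none of the 4 held the TATA box TATAAA. The stretches were 22, 71, 250 and 250 bases long, so the shorter ones had less room for a motif. The 250 bases before the start were matched for 40 of the 55 members, with 44 windows. GGGCGG occurred in 24 of the 44 (54.5%), against 32.7% of the 32851 promoters of the table. CCAAT occurred in 31.8% of the members' windows against 33.8%, and TATAAA in 11.4% against 12.4%. Both strands were searched, a window could hold more than 1 motif, and these shares of matching windows were not tested.

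The libraries held between 16139487 and 44145158 counts. Levels are given as CPM, which are counts rescaled so that every library, after TMM, has the same total, and as CPM per kb of exon where different genes are compared. Ppp1r3c was at 23.2 ± 1.19 CPM (SD, n = 3) in control and 5.35 ± 0.624 CPM in cKO testes. The Sertoli marker list summed to 1675 to 2121 CPM in the control and 1581 to 2139 CPM in the cKO samples, with none of its 8 genes at 0 in a sample. The 8 germ cell markers summed to 401 to 652 CPM in the control and 181 to 407 CPM in the cKO samples. In bulk samples, fewer cells of a type and less RNA per cell cannot be told apart. Xist, an RNA of X inactivation in XX cells, was at 379 CPM in a single library, cKO replicate 3, against 0.369 to 1.0 CPM in the other 5 samples, and the 6 pre-granulosa markers summed to 268 CPM in that sample against 82.8 to 100.2 CPM in the others, with none of the 6 at 0 in a sample. This sample is called a testis by its label, and whether it held testis only was not tested. Genes with 1 sample at least 2 times above the highest of the other 5 numbered 86 of 13793 (0.624%, genes with a mean of at least 1 CPM), with 48 in cKO replicate 3 and 37 in cKO replicate 1. Results were therefore also computed without each of these 2 libraries.

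No collagen or laminin chain passed the test of cKO against control. In edgeR's quasi-likelihood test, with Benjamini-Hochberg adjustment over 15577 genes, 0 of the 53 tested members had an adjusted p (FDR) below 0.05. The background was 6 genes (0.0385%). DESeq2, the tool of the study, also called 0 members, against 0.779% of the 14243 genes with an adjusted p. The lowest FDR among the members was 0.418 by edgeR and 0.335 by DESeq2. At an unadjusted edgeR p below 0.05 there were 4 members of 53 (7.55%), where 11.4% of all genes lay below it. The remaining 2 members were not tested. Col10a1, a hypertrophic cartilage collagen, had 0 counts in all 6 samples, which allows a level of up to 0.186 CPM in the shallowest library and 0.0680 CPM in the deepest, by counting error only. Col19a1 had 1, 6 and 1 counts in controls against 1, 4 and 46 counts in cKO testes and did not pass the filter on low counts.

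The differences of most members lay close to 0, as did those of most genes. The median log2 fold change of the 53 was -0.014, beside -0.0034 over all genes, and 37 of the 53 were within 0.2 of 0, as were 75% of all genes. Higher values in cKO testes were found for 23 members and lower values for 30 (49.1% of all genes were higher). The log2 fold changes ran from -0.32 to 0.95, and the 95% interval lay within 1 of 0 for 49 members and within 0.5 for 36. Of all 15577 genes tested, 13451 had an interval within 1 of 0 and 10630 within 0.5. Together the chains took 1.37%, 1.19% and 1.38% of all counts in controls against 1.29%, 1.46% and 1.15% in cKO testes. The means were 1.31 ± 0.110% and 1.30 ± 0.153% (SD, n = 3), and the groups overlapped.

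**Figure D1:**
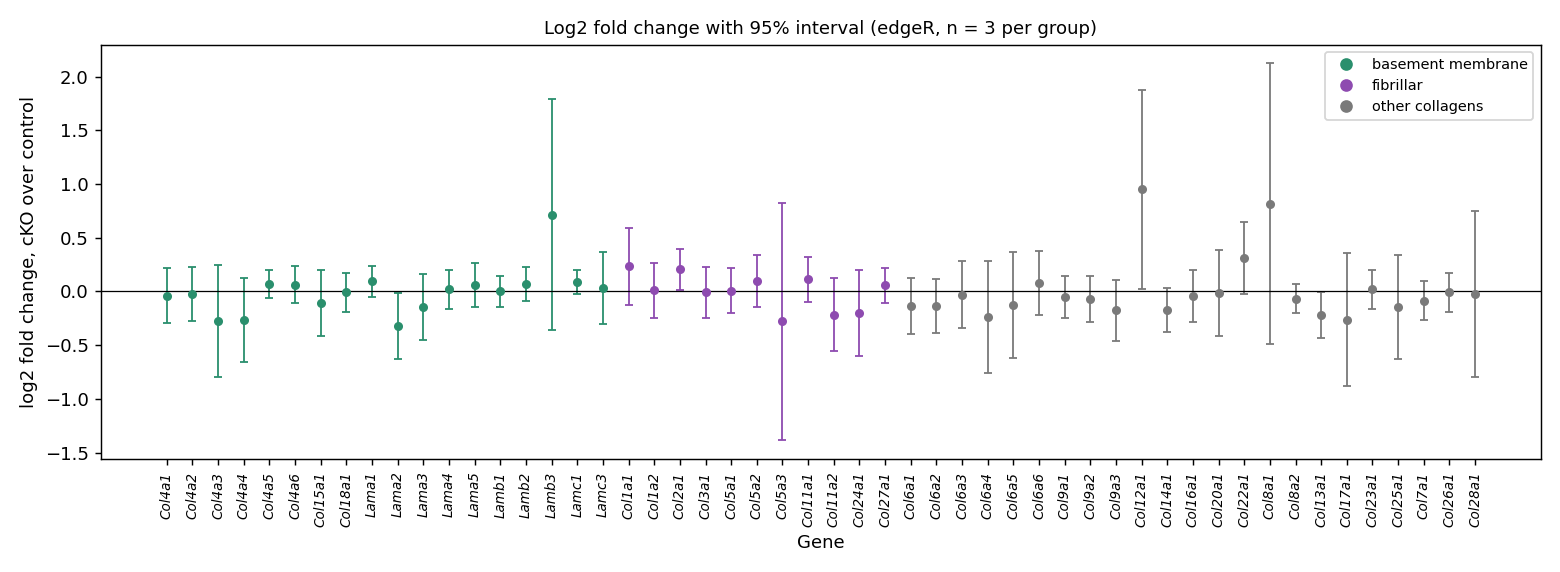
Log2 fold change of cKO over control testes for 52 of the 53 tested chains (vertical axis) with 95% intervals from edgeR (bars), in basement membrane (green), fibrillar (purple) and other collagen (grey) genes. Most points sit within 0.2 of 0; Col12a1 at 0.95 and Col8a1 at 0.82 stand highest, with wide intervals.

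Among the basement membrane chains, Col4a1 was the most abundant per kb, followed by Col18a1 and Col4a2. Col4a1 (gene ID 12826) and Col4a2 (gene ID 12827), which join as 2 Col4a1 and 1 Col4a2 chain in nearly all basement membranes, are network-forming chains of type IV collagen. Col4a1 was at 1937, 1675 and 2078 CPM in controls against 1764, 2167 and 1612 CPM in cKO testes. Its highest and lowest values were both cKO samples, replicates 2 and 3. Its log2 fold change was -0.04 (95% interval -0.29 to 0.22). Col4a2 was at 1214, 1012 and 1256 CPM in controls against 1088, 1329 and 1003 CPM in cKO testes, in the same order of cKO samples, with a log2 fold change of -0.03 (95% interval -0.28 to 0.23). Per kb, Col4a1 was at 287 ± 30.9 CPM per kb (SD, n = 3) in control and 279 ± 43.3 in cKO testes.

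The other type IV chains were expressed at lower levels. Col4a5 and Col4a6, a pair of X-linked chains of smooth muscle and epithelial basement membranes, were at 21.5 and 4.85 CPM per kb in control testes. Col4a5 was at 149, 134 and 139 CPM in controls against 142, 152 and 147 CPM in cKO testes, which overlapped, with a log2 fold change of 0.07 (95% interval -0.06 to 0.20). Col4a6 had a log2 fold change of 0.06 (95% interval -0.10 to 0.23). Col4a3 and Col4a4, the chains that with Col4a5 build the mature glomerular membrane of the kidney, were the scarcest type IV chains, at 0.768 and 2.03 CPM per kb in control testes. Col4a4 was at 19.7, 19.4 and 22.4 CPM in controls against 16.2, 22.2 and 12.7 CPM in cKO testes. The lowest of the 6 was cKO replicate 3 and the next was cKO replicate 1, while cKO replicate 2 lay within the control values. The log2 fold changes were -0.27 (95% interval -0.66 to 0.13) for Col4a4 and -0.28 (95% interval -0.80 to 0.24) for Col4a3, and neither passed the test. Both depended on single libraries. Col4a4 was at -0.50 (p 0.00331) without cKO replicate 2 and at -0.096 without cKO replicate 3, and Col4a3 was at -0.49 (p 0.0572) and -0.072.

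Types XV and XVIII are basement membrane collagens that carry sulfated sugar chains and release anti-angiogenic fragments. Col18a1, the precursor of endostatin, was the second most abundant basement membrane chain per kb, at 1849, 1634 and 1681 CPM in controls against 1655, 1896 and 1579 CPM in cKO testes. Its groups overlapped, and the log2 fold change was -0.01 (95% interval -0.19 to 0.17). Over the 8 collagens of this class, 2 were higher and 6 lower in cKO testes, with a median log2 fold change of -0.03 and none below an unadjusted p of 0.05.

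Laminin alpha chains carry the binding sites for cell surface receptors. Lama4, the alpha chain of vessel and mesenchymal laminins, and Lama1, the alpha chain of laminin-111 in early embryonic membranes, led the 5 alpha chains per kb. Lama4 was at 178, 156 and 184 CPM in controls against 179, 187 and 159 CPM in cKO testes. Lama1 was at 170.4, 161 and 177 CPM in controls against 168, 192 and 184 CPM in cKO testes, so that cKO replicates 2 and 3 exceeded all controls and replicate 1 lay among them. The log2 fold changes were 0.02 (95% interval -0.16 to 0.20) and 0.10 (95% interval -0.05 to 0.24). Lama5, the alpha chain of many mature epithelial membranes, was at 79.0, 74.6 and 65.2 CPM in controls against 68.0, 78.8 and 81.4 CPM in cKO testes, with a log2 fold change of 0.06 (95% interval -0.14 to 0.27).

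Lama2, the alpha chain of muscle and peripheral nerve laminin, was the only basement membrane chain below an unadjusted p of 0.05 with all samples. It was at 21.5, 20.5 and 26.6 CPM in controls against 17.9, 21.6 and 15.5 CPM in cKO testes. The 2 lowest values were cKO replicates 3 and 1, and cKO replicate 2 lay within the control values. On the log2 scale the fold change was -0.32 (SE 0.137, edgeR p 0.0430, FDR 0.424), so it did not pass the adjusted threshold. The background for an unadjusted p below 0.05 in this direction was 5.8% of all genes. Without cKO replicate 3 its log2 fold change was -0.22 (p 0.147), and without cKO replicate 1 it was -0.30 (p 0.0848). It was -0.20 (p 0.213) without control replicate 3, -0.36 (p 0.0491) without control replicate 1, -0.41 (p 0.0333) without control replicate 2 and -0.45 (p 0.00675) without cKO replicate 2.

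The beta and gamma chains complete the laminin heterotrimer. Lamb1, the beta chain of laminin-111, was the most abundant laminin chain per kb and was at 581, 519 and 595 CPM in controls against 566, 588 and 540.4 CPM in cKO testes. The group means per kb agreed to 3 digits, at 96.7, and the log2 fold change was 0.00 (95% interval -0.15 to 0.15). Lamb2, the beta chain of neuromuscular and glomerular laminins, was at 121, 102 and 118 CPM in controls against 116, 124 and 117 CPM in cKO testes and had a log2 fold change of 0.07 (95% interval -0.09 to 0.23). Lamb3, a chain of the skin laminin-332, was near the detection limit, at 0.204 to 0.635 CPM, and its log2 fold change of 0.72 (95% interval -0.36 to 1.79) was correspondingly imprecise, with 0.40 to 1.06 when single samples were left out.

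Lamc1, the gamma chain of most laminins, was at 370.3, 349 and 369 CPM in controls against 374, 388 and 393 CPM in cKO testes. Every cKO value was above every control value, but the gap between the groups was smaller than the spread within either of them. cKO over control gave a log2 fold change of 0.09 (95% interval -0.03 to 0.20), and the exact two-sided permutation test gave p = 0.1, its lower limit at this sample number. Lamc1 was the only basement membrane chain whose groups did not overlap, where 15.6% of all genes did not. Lamc3, a gamma chain found at neural and vascular sites, was at 29.4, 24.0 and 29.2 CPM in controls against 25.1, 35.5 and 23.6 CPM in cKO testes, with cKO replicate 2 the highest of the 6, and had a log2 fold change of 0.03 (95% interval -0.30 to 0.37).

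Of the 11 laminin chains, 9 had higher and 2 lower values in cKO testes, with a median log2 fold change of 0.06. The 19 basement membrane chains together had 11 higher and 8 lower values and a median of 0.02. Of these, 14 lay within 0.2 of 0. They took 0.667 ± 0.0527% of the counts in control and 0.659 ± 0.0781% in cKO testes (SD, n = 3). Leaving out cKO replicate 3 gave a median of 0.06, and leaving out replicate 1 a median of 0.01. Without cKO replicate 3, 0 of the 19 had an unadjusted edgeR p below 0.05, against 7.83% of all genes. Without cKO replicate 1 there was 1, against 13.8% of all genes. This was Lama1, at a log2 fold change of 0.15 (p 0.04998, FDR 0.361).

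**Figure D2:**
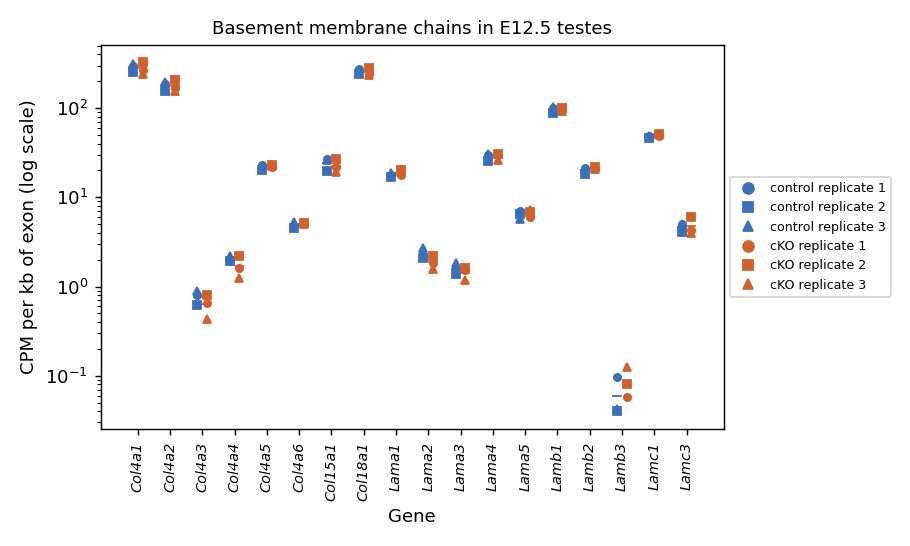
Level of 18 of the 19 basement membrane chains in each sample, in CPM per kb of exon on a log axis; symbols mark replicates, blue control and orange cKO, and horizontal lines mark the group means. Col4a1, Col18a1 and Col4a2 lead, Lamb3 is the lowest, and the scatter of the points is widest in scarce chains such as Col4a3, Col4a4 and Lamb3.

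The fibrillar collagens were led by type III and type I chains. Col3a1, the single chain of type III collagen in distensible tissues and vessels, was at 1461, 1292 and 1649.9 CPM in controls against 1435, 1652 and 1297 CPM in cKO testes, with a log2 fold change of -0.01 (95% interval -0.24 to 0.23). Col1a2, 1 of the 2 kinds of chain in type I collagen, was at 1061, 923 and 1131 CPM in controls against 1144, 1133 and 861 CPM in cKO testes, with a log2 fold change of 0.01 (95% interval -0.24 to 0.27). In both, cKO replicate 3 was among the 2 lowest samples and the groups overlapped.

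Col1a1, the other chain of type I collagen, differed from Col1a2 in 1 sample. It was at 468, 438 and 576 CPM in controls against 736, 549.9 and 457 CPM in cKO testes. The highest value was cKO replicate 1, and the other 2 cKO samples lay within the control values. This gave a log2 fold change of 0.23 (SE 0.160, edgeR p 0.176, FDR 0.596). It was 0.38 (unadjusted edgeR p 0.0211) without cKO replicate 3, whereas leaving out replicate 1 gave 0.03, and it passed the adjusted threshold in neither case.

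Col2a1, the collagen of cartilage fibrils, which is also transcribed in the early testis, had the lowest p of the fibrillar class. It was at 117, 115 and 100.2 CPM in controls against 113, 137 and 132 CPM in cKO testes. Replicates 2 and 3 of the cKO group were above all controls, and replicate 1 was within the control values. Its log2 fold change was 0.21 (SE 0.0859, edgeR p 0.0388, FDR 0.418), beside a background of 5.56% of genes that were higher in cKO testes at an unadjusted p below 0.05. The 6 markers of cartilage and tendon summed to 51.7 to 68.8 CPM in control and 69.4 to 76.3 CPM in cKO samples. Tnmd, a tendon marker, was at 0 in some of these samples. Of the 4 markers tested by edgeR, 2 were higher and 2 lower in cKO testes, with a median log2 fold change of 0.02. The part of these markers in the Col2a1 values was not tested. Without cKO replicate 1 the log2 fold change of Col2a1 was 0.29 (edgeR p 0.00583, FDR 0.203), and without cKO replicate 3 it was 0.18 (p 0.10). It was 0.13 (p 0.176) without control replicate 3.

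Over the 11 fibrillar chains, 7 were higher and 4 lower in cKO testes, with a median log2 fold change of 0.01 and a range of -0.28 to 0.23. They took 0.406 ± 0.0402% of the counts in control and 0.418 ± 0.0527% in cKO testes (SD, n = 3). This median depended on the libraries. It was 0.01 without cKO replicate 1, where 1 of the 11 had an unadjusted edgeR p below 0.05, against 13.8% of all genes. Without cKO replicate 3 it was 0.11, and 3 of the 11 (27.3%, all higher) had such a p. The background in that fit was 7.83% of all genes, and 3.54% in that direction. The 3 were Col1a1, Col5a2 and Col11a1, of which the last 2, chains of the fibril-nucleating types V and XI, were named after their values were seen. Their log2 fold changes without cKO replicate 3 were 0.22 for Col5a2 and 0.21 for Col11a1, and all 3 had an FDR of 0.633.

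Compared with each other, the basement membrane and fibrillar classes had medians of 0.02 and 0.01 on the log2 fold change scale, and 0 chains were called in either. Per sample, the basement membrane chains summed to 1044, 908 and 1049 CPM per kb in the control and 959, 1113 and 905 CPM per kb in the cKO samples. The fibrillar chains summed to 691, 613 and 751 CPM per kb and to 747, 764 and 609 CPM per kb. By these sums, in which abundant chains weigh most, control replicate 2 and cKO replicate 3 were the 2 lowest samples in both classes. The highest in both was cKO replicate 2. With each fibrillar chain given equal weight, as a mean log2 difference from the control mean, the order differed. By that measure cKO replicate 1 was the highest (0.153) and cKO replicate 3 the lowest (-0.112). Control replicate 1 was at -0.070, control replicate 2 at -0.029 and cKO replicate 2 at -0.0046.

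The beaded filament collagen of type VI forms microfibrils around cells and next to basement membranes. Col6a1 was at 427, 341 and 421 CPM in controls against 359, 414 and 307 CPM in cKO testes, and Col6a2 at 366, 294 and 370.2 CPM in controls against 316, 353 and 269 CPM in cKO testes. Both chains were lowest in cKO replicate 3 and overlapped between the groups. Their log2 fold changes were -0.14 (95% interval -0.40 to 0.12) and -0.13 (95% interval -0.39 to 0.12). Leaving out cKO replicate 2 gave -0.25 (p 0.0409) for Col6a1 and -0.23 (p 0.0597) for Col6a2, and leaving out cKO replicate 3 gave -0.034 and -0.036. Of the 6 type VI chains, 5 were lower and 1 higher, with a median of -0.13.

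The fibril-associated collagens (FACIT), which sit on the surface of fibrils, were led by type IX chains. Col9a3 was at 415, 345 and 384 CPM in controls against 321, 411 and 279.7 CPM in cKO testes, which overlapped, and Col9a2 was at 274, 244 and 229 CPM in controls against 225, 273 and 215 CPM in cKO testes. Their log2 fold changes were -0.18 (95% interval -0.46 to 0.11) and -0.07 (95% interval -0.29 to 0.15). Leaving out cKO replicate 2 gave -0.34 (p 0.00362) for Col9a3 and -0.18 (p 0.0494) for Col9a2, and leaving out cKO replicate 3 gave -0.059 for Col9a3 and -0.0020 for Col9a2. Both belong to a collagen best known from cartilage that is also made in the early testis, and per kb both were above Col1a1 or close to it, at 125 and 85.3 CPM per kb in control testes against 83.3.

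Col12a1, a FACIT of tendon, fascia and tissues under tension, had the largest log2 fold change of the 53 members tested by edgeR. It was at 23.9, 28.8 and 23.4 CPM in controls against 28.6, 27.3 and 92.2 CPM in cKO testes. Only cKO replicate 3 was high, 3.20 times the next highest sample, and the other 2 cKO samples lay within the control values. On the log2 scale the fold change was 0.95 (SE 0.411, edgeR p 0.0450, FDR 0.433), and it was 0.13 (p 0.246) without cKO replicate 3, 1.23 (p 0.00932) without cKO replicate 1 and 1.24 (p 0.00667) without cKO replicate 2. This is the library with high Xist and pre-granulosa markers, whose part in the result was not tested. Col19a1, named after its values were seen, also had its highest value there, 1.39 CPM against no more than 0.136 CPM in the other samples, and DESeq2, which fitted it, gave a log2 fold change of 2.74 (unadjusted p 0.0249) and no adjusted p.

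Col8a1, a short-chain collagen of vessel walls and the subendothelium, had the second largest log2 fold change of those tested and the same kind of pattern in another library. It was at 4.43, 6.07 and 5.64 CPM in controls against 20.4, 5.48 and 2.72 CPM in cKO testes. Only cKO replicate 1 was high, 3.36 times the next sample, and the lowest of the 6 was also a cKO sample. cKO over control gave a log2 fold change of 0.82 (95% interval -0.49 to 2.12), and it was -0.40 without cKO replicate 1 and 1.25 (p 0.0152) without cKO replicate 3. The extracellular matrix gene Thbs2, a thrombospondin that was named after its values were seen, had 87.1 CPM in cKO replicate 1 against 5.23 to 8.92 CPM elsewhere, and the mesothelial marker Msln, also named afterwards, had 8.28 CPM there against 0.111 to 0.521 CPM elsewhere. The 5 surface epithelium markers, Msln among them, summed to 132.8 CPM in cKO replicate 1. That was within the 120.6 to 136.6 CPM of the controls, and the highest sum was 156.0 CPM, in cKO replicate 3. The part of Thbs2 and Msln in the Col8a1 values was not tested. Col12a1 and Col8a1 were the only members with such a single high sample, 2 of the 51 with a mean of at least 1 CPM, where 0.624% of all genes had one. Col8a2, the partner chain, was at 32.4, 32.7 and 32.3 CPM in controls against 30.8, 31.8 and 30.6 CPM in cKO testes, with no overlap between the groups but a log2 fold change of -0.07 (95% interval -0.20 to 0.07).

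**Figure D3:**
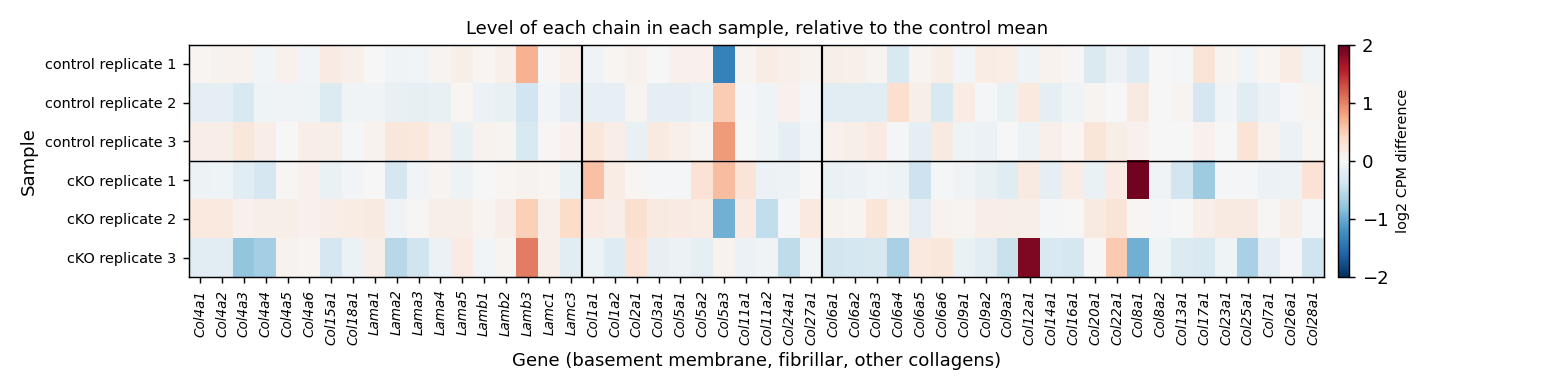
Log2 CPM of 52 of the 53 tested chains in each sample minus the mean of the 3 control samples (colour, from -2 in blue to 2 in red), with vertical lines between the basement membrane, fibrillar and other collagens. The darkest cells of the cKO rows are Col12a1 in replicate 3 and Col8a1 in replicate 1; most other cells are pale.

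The transmembrane collagens are made at the cell surface and can be shed. Col13a1, a component of adhesion sites and the neuromuscular junction, was at 33.7, 35.8 and 34.3 CPM in controls against 26.6, 34.3 and 28.5 CPM in cKO testes. Replicates 1 and 3 of the cKO group were below all controls, and replicate 2 was among them. This gave a log2 fold change of -0.22 (SE 0.0947, edgeR p 0.0467, FDR 0.435), and it was -0.14 (p 0.171) without cKO replicate 1, -0.33 (p 0.00236) without cKO replicate 2 and -0.19 (p 0.130) without cKO replicate 3. Col23a1 was at 39.8, 36.8 and 38.5 CPM in controls against 37.2, 43.3 and 36.2 CPM in cKO testes and had a log2 fold change of 0.02 (95% interval -0.16 to 0.20).

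Among the remaining types, Col26a1, a collagen first described in testis and ovary, was at 148, 131 and 123 CPM in controls against 125, 145 and 129.8 CPM in cKO testes, with a log2 fold change of -0.01 (95% interval -0.19 to 0.17). Col7a1, the anchoring fibril collagen of skin, was at 32.4, 28.9 and 32.9 CPM in controls against 29.0, 31.8 and 27.7 CPM in cKO testes, with a log2 fold change of -0.09 (95% interval -0.27 to 0.10). Col22a1, a FACIT of tissue junctions such as that of muscle and tendon, was named after its values were seen and was the only member besides Lamc1 with all cKO values above all control values, at 4.74, 5.18 and 5.56 CPM in controls against 5.76, 6.17 and 7.41 CPM in cKO testes. It had a log2 fold change of 0.31 (95% interval -0.02 to 0.65), and 0.39 (edgeR p 0.0461, FDR 0.351) without cKO replicate 1. Together the 23 tested chains of the other collagen classes had 5 higher and 18 lower values and a median of -0.07, which moved to -0.0021 when cKO replicate 3 was left out and stayed at -0.07 when replicate 1 was. They took 0.239 ± 0.0203% of the counts in control and 0.224 ± 0.0292% in cKO testes (SD, n = 3). Over all members, groups did not overlap for 3 of 53 (5.66%), 2 higher and 1 lower, against 8.42% and 7.17% of all genes.

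**Figure D4:**
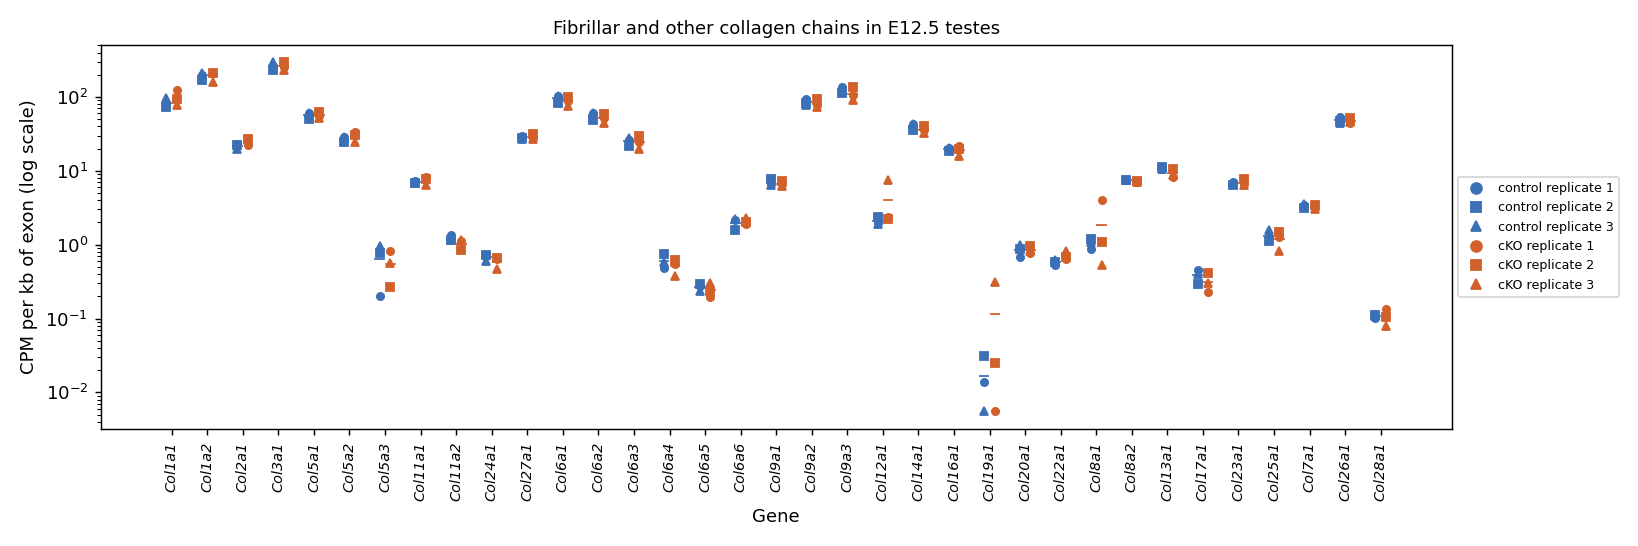
Level of the fibrillar and other collagen chains in each sample, in CPM per kb of exon on a log axis, with symbols, colours and lines for replicates, groups and group means; Col10a1, with 0 counts, is not drawn. Col3a1 and Col1a2 lead, Col12a1 has 1 high point (cKO replicate 3) and Col8a1 1 high point (cKO replicate 1).

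Pairs of chains were then compared within each sample, which removes any factor that scales a whole library. Some were chains of the same molecule, such as Col4a1 and Col4a2, and others were not, such as Lama1 and Lama5. The levels in CPM had already been scaled by library. The ratio Col4a1 to Col4a2, of levels per kb, was 1.56, 1.61 and 1.61 in the control and 1.58, 1.59 and 1.57 in the cKO samples. Col6a1 to Col6a2 was equally steady, between 1.66 and 1.72. Levels of Col4a1 itself ran from 1612 to 2167 CPM over the same 6 samples. The ratio of the Col4a1 and Col4a2 levels thus varied less over the samples than the level of Col4a1 did, which did not hold for every pair below.

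The other type IV pairs also kept similar ratios in both groups. Col4a5 to Col4a6 lay between 3.99 and 4.88 and Col4a3 to Col4a4 between 0.321 and 0.410, in both cases with the extremes in control samples. The Col4a5 to Col4a6 ratio varied more over the samples than the level of either chain. Their highest level over the lowest was 1.14 for Col4a5 and 1.17 for Col4a6. The Col4a3 to Col4a4 ratio varied less than either level, for which that value was 2.05 and 1.77. The log2 fold changes within a pair were close, -0.28 and -0.27 for Col4a3 and Col4a4, 0.07 and 0.06 for Col4a5 and Col4a6, and -0.04 and -0.03 for Col4a1 and Col4a2.

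Type I collagen was the exception in 1 library. The ratio Col1a1 to Col1a2 was 0.398, 0.428 and 0.459 in controls against 0.580, 0.438 and 0.479 in cKO testes. Col3a1 to Col1a1 was 2.08 in cKO replicate 1 and 3.02 to 3.33 in the other samples, and Col4a1 to Col1a1 was 2.15 there and 3.16 to 3.71 in the others. In all 3 ratios cKO replicate 1 was the sample farthest from the rest, and the other cKO samples lay within or next to the control values.

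Among the laminins, Lamb1 was 4.45 to 4.91 times Lamb2 per kb, and Lamc1 was 0.475 to 0.557 times Lamb1. Lama1 was 2.58 to 3.25 times and Lama4 3.67 to 5.32 times Lama5. No ratio separated the groups. Over the 11 ratios the exact two-sided permutation p was 0.2 to 1, and 0.88 to 1 after Benjamini-Hochberg adjustment. The smallest p that this design allows is 0.1.

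**Figure D5:**
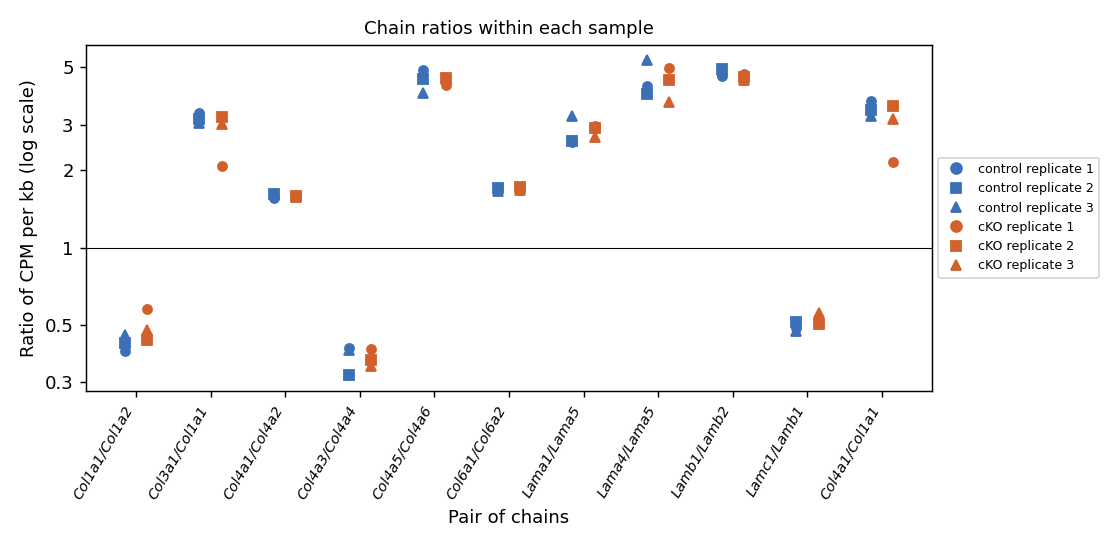
Ratio of CPM per kb between 2 chains in each sample (log axis), with symbols for replicates and colours for control (blue) and cKO (orange). The points of Col4a1/Col4a2 and Col6a1/Col6a2 nearly coincide, and cKO replicate 1 stands apart in the 3 ratios with Col1a1.

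The genes that assemble, bind, modify and degrade these chains were read from the same test, as 6 lists with 90 of 91 genes tested. By edgeR 0 were called, where 0.0385% of all genes were. By DESeq2 1 was called, where 0.779% of all genes with an adjusted p were. At an unadjusted edgeR p below 0.05 there were 9 of 90 (10%), against 11.4% of all genes. The 9 were all higher in cKO testes, where 5.56% of all genes lay in that direction. Without cKO replicate 3 there were 8, against 7.83% of all genes, and without cKO replicate 1 there were 13, where 13.8% of all genes lay below that p. The median log2 fold change over the 90 was 0.03. Groups did not overlap for 8 of the 90 (8.89%), 7 higher and 1 lower, against 15.6% of all genes.

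The gene that DESeq2 called was Mmp15, a membrane-anchored matrix metalloproteinase. It was at 192, 178 and 179 CPM in controls against 205, 224 and 217 CPM in cKO testes, so every cKO value was above every control value. Its log2 fold change was 0.24 (SE 0.0562, edgeR p 0.00210, FDR 0.377), with a DESeq2 FDR of 0.0495, just below the threshold. DESeq2 called 0.0815% of genes without cKO replicate 3, against 0.779% with all samples. Values of Mmp15 without single samples are not given here. Of the 14 tested genes of matrix degradation, 10 were higher and 4 lower. Among the receptors, Itga6, the alpha subunit of laminin-binding integrins, had the lowest p. It was at 340.0, 294 and 330.5 CPM in controls against 357, 384 and 380.3 CPM in cKO testes, without overlap, and the log2 fold change was 0.22 (SE 0.0653, edgeR p 0.00831, FDR 0.377). Of the 13 receptor genes, 9 were higher and 4 lower.

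In each other list the gene of lowest p was also higher in cKO testes and none passed the adjusted threshold. Smoc1, a matricellular protein of basement membranes, was at 145, 146 and 145 CPM in controls against 158, 165 and 161 CPM in cKO testes, with a log2 fold change of 0.15 (95% interval 0.04 to 0.26). Among the 17 partners of the basement membrane, 9 were higher and 8 lower. P4ha1, a subunit of the prolyl hydroxylase that stabilises the triple helix, had a log2 fold change of 0.19 (95% interval 0.02 to 0.36), and 15 of the 20 folding and secretion genes were higher and 5 lower, all within 0.2 of 0. Loxl1, a cross-linking oxidase, had a log2 fold change of 0.15 (95% interval 0.00 to 0.31) in a list of 12 with 4 higher and 8 lower. Postn, a matricellular protein that binds collagen, was at 35.0, 33.4 and 32.2 CPM in controls against 37.4, 37.2 and 41.4 CPM in cKO testes, with a log2 fold change of 0.21 (95% interval 0.05 to 0.37), in a list of 14 with 7 higher and 7 lower.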

How the data were processed

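RNA was measured by stranded mRNA sequencing in 6 samples labelled as E12.5 mouse testes, grouped by the sample titles. Deposited per gene were raw counts of read pairs. The authors aligned the pairs to mm10 with STAR (version 2.5 in the submitters' processing notes) and counted them in a reverse-stranded mode with featureCounts (Subread 1.5.0-p1) on RefSeq Curated gene models. No other normalization or filter was applied to the table.

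edgeR (version 4.0.16, R 4.3.3) was fitted to all genes that passed filterByExpr (minimum count 10), with TMM factors and no covariates. P-values were adjusted over all genes tested, with a threshold of 0.05, and 95% intervals were derived from the F statistic and its degrees of freedom. CPM per kb used GENCODE M21 exon lengths of the same genome build, which are not the RefSeq models of the counts, so these levels are approximate. Chain ratios were compared by exact permutation tests. DESeq2 (version 1.42.0), limma-voom (limma version 3.58.1), RLE and upper-quartile factors, other count filters, a replicate block, thinned libraries and leaving out each sample were alternatives. DESeq2 without cKO replicate 3 was added after the data were seen. The fits were tested on simulated data.

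The members, the lists of related genes and the tests were chosen with earlier results of these data known. Genes named were the 2 most abundant per kb and the lowest p in each class, members with an unadjusted p below 0.05, the chains of laminin-111, types I, III and IV, Lama5, the lowest p and any called gene of each related list, Ppp1r3c and Xist. No source states that the pools of a group came from separate litters, so p-values cover the spread between these samples only. Depth of 16139487 to 44145158 counts per sample sets the counting error. 1 member is counted in the totals but is not reported or drawn here.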

Additional observations from a re-analysis of the deposited data

How the results depend on the processing

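No member was called under any of the alternatives run, and the number with an unadjusted p below 0.05, 4 with all samples, was lowest (0, against 8.55% of all genes) without control replicate 3 and highest (8 of 53, 15.1%, against 8.8% of all genes) without cKO replicate 2. The 8 were 2 lower basement membrane chains and, among the other collagens, 5 lower and 1 higher. Leaving out control replicate 1 or control replicate 2 gave 2 (3.77%), against 13.2% and 7.0% of all genes. Of all genes with an adjusted p, edgeR called 0.0385%, DESeq2 0.779%, DESeq2 without cKO replicate 3 0.0815%, and edgeR 0.0126% to 0.051% when single samples were left out. Over the same omissions, the median log2 fold change ran from -0.060 to 0.059 for the basement membrane, -0.075 to 0.11 for the fibrillar and -0.11 to -0.0021 for the other collagens.

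Deviations from the group means showed no positive correlation in same-numbered samples (-0.203, -0.266 and -0.130). With means of 3 samples a group, these values are tied to one another. They cannot show whether samples shared a litter or batch. With the replicate block 3 genes were called (0.0193%), 0 of them members. In that fit 1 member (1.89%) had an unadjusted p below 0.05, against 6.32% of all genes.

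Log2 fold changes near 0 turned their sign under single alternatives, and none of them was a call. With upper-quartile factors, Col3a1 was at 0.0032 and Col26a1 at 0.0023. With limma-voom, Col26a1 was at 0.0025. In libraries thinned to the smallest total, Lama4 was at -0.011 and Col23a1 at -0.0017. In DESeq2 without cKO replicate 3, Col3a1 was at 0.076, Col4a1 at 0.054, Col4a2 at 0.061, Col18a1 at 0.048, Col9a2 at 0.00033 and Col26a1 at 0.014. Without single samples, the ranges were -0.075 to 0.13 (Col1a2), -0.10 to 0.083 (Col3a1), -0.17 to 0.052 (Col4a1), -0.15 to 0.059 (Col4a2), -0.090 to 0.046 (Col18a1), -0.060 to 0.084 (Lama4), -0.019 to 0.14 (Lama5), -0.067 to 0.035 (Lamb1), -0.014 to 0.12 (Lamb2), -0.17 to 0.14 (Lamc3), -0.18 to 0.0031 (Col9a2), -0.40 to 1.25 (Col8a1), -0.060 to 0.071 (Col23a1) and -0.069 to 0.069 (Col26a1). For Col8a1 the sign turned without cKO replicate 1, its high sample, and for the others the cause was not tested.

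The log2 differences in chain ratio that turned their sign when single samples were left out ran from -0.12 to 0.052 for Col4a3/Col4a4, -0.079 to 0.066 for Col4a5/Col4a6, -0.019 to 0.0030 for Col6a1/Col6a2, -0.020 to 0.15 for Lama1/Lama5 and -0.14 to 0.085 for Lama4/Lama5. With 3 samples a group, the intervals of low chains such as Lamb3 and Col5a3 reach past 1 on the log2 scale.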
